A study of Mus musculus with 6 samples.

Results

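The proprotein convertases are secreted or membrane-bound serine proteases that cut precursor proteins in the secretory pathway, most of them after pairs of basic residues. Many growth factors, receptors, adhesion molecules and matrix proteases stay inactive until a convertase has removed their propeptide. Furin is the widely expressed member of the Golgi and cell surface, Pcsk5 and Pcsk6 can be held outside the cell by heparan sulfate proteoglycans, and Mbtps1 (site-1 protease) is a distant relative that cuts membrane-bound transcription factors in the Golgi after other residues. The genes described here are Furin, Pcsk1, Pcsk4, Pcsk5, Pcsk6, Pcsk7 and Mbtps1, 7 of the 55450 genes in the deposited count table. They were taken by symbol and chosen by their expression values in the comparison of mutant with control, since Pcsk6 had one of the largest differences there. For that reason their own values in it are given as a description, without p-values.

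RNA-seq was done on CD31-positive cells isolated from mouse brain at postnatal day 7. The mutant group had 3 libraries from Cdh5(PAC)-CreERT2; Rbpjflox/flox mice and the control group had 3 libraries from Cdh5(PAC)-CreERT2; Rbpjflox/WT mice. All pups of both groups carried the tamoxifen-inducible Cre under the Cdh5 promoter, which is active in endothelium, had at least 1 floxed Rbpj allele and were given 100 µg tamoxifen on postnatal days 1 and 2. Rbpj encodes the transcription factor that carries the signal of activated Notch to its target genes. The mice were of both sexes on a mixed FVB/N and C57BL/6 background. RNA of many mice was pooled per group and sequenced in triplicate, and nothing in the labels says that each library had mice of its own. The spread behind every p-value may therefore be technical only.

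Total estimated counts were 75744913 to 81556241 in the mutant libraries and 78577192 to 82092461 in the control libraries. Expression is given below in CPM (counts scaled to a common library total) after TMM scaling, a correction for library composition. Rbpj itself had 47.9, 46.8 and 45.2 CPM in mutant libraries and 54.3, 54.3 and 53.8 CPM in control libraries (log2 fold change -0.21 ± 0.042 SE). This is a weak check of the deletion. Counts per gene take in exons that Cre leaves in place. Control pups also carried Cre and a floxed allele and were given tamoxifen, so control libraries are no measure of undeleted Rbpj. The source of the small difference was not tested. Endothelial markers summed to 12424 to 13440.4 CPM in mutant and 12151 to 12489 CPM in control libraries, with 3 of 10 called higher (Pecam1, Emcn and Tie1, log2 fold change 0.41, 0.47 and 0.21) and 2 lower (Tek and Cdh5, -0.62 and -0.15). Of all tested genes 7.56% were called higher and 6.83% lower. Levels of mural cell markers ranged widely. The highest was the pericyte gene Rgs5, at 2172 ± 82.1 CPM in mutant and 2043 ± 38.2 CPM in control libraries (SD, n = 3 each). The lowest was the smooth muscle gene Cnn1, at 1.20 ± 0.352 CPM in mutant and 4.30 ± 0.792 CPM in control libraries (SD, n = 3 each). On the second principal component mutant library 3 stood apart, at -55.6 against 31.2 and 26.2 for mutant libraries 1 and 2.

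The family relationship can be read in the coding sequence around the codon of the active-site serine, which is shown here because it bears on whether reads of one member could have been counted for another. The sequences run 5′ to 3′ over 60 bases of the longest coding transcript of each gene in GENCODE release M21 (GRCm38), with the serine codon in capitals.
Pcsk6: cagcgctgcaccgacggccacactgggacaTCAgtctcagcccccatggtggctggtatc
Pcsk5: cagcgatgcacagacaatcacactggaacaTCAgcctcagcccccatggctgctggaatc
Furin: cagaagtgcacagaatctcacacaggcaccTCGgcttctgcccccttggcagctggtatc
Pcsk1: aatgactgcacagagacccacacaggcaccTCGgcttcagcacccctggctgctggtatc
Pcsk4: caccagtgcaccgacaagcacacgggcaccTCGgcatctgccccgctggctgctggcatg
Pcsk7: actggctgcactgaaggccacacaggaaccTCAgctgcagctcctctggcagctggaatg
Mbtps1: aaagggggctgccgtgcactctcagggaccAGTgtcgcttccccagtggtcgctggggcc
In this window Pcsk6 shared 50 of 60 bases with Pcsk5, 42 with Furin and 32 with Mbtps1, while Furin and Pcsk1 shared 49. The serine is codon 410 in Pcsk6, 388 in Pcsk5, 368 in Furin and 414 in Mbtps1, counted from the start codon. Over the whole transcripts, no run of 31 bases of Pcsk6 occurred in another member, and 2 such runs were shared between other members. Between 0% and 2.61% of the runs of 31 bases of each member occurred in any other annotated gene. The highest share, that of Pcsk6, included Gm45213, an annotated gene that overlaps both Pcsk6 and Snrpa1 on the same strand and was at 0 in all 6 libraries.

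Pcsk6 stood out from the rest of the family. Its plus-strand gene spans 65861734 to 66050386 of chromosome 7 (GRCm38), and it encodes a secreted convertase known for activating Nodal and other TGF-beta family precursors in the embryo. Pcsk6 had 54.3, 55.1 and 56.1 CPM in the mutant libraries and 7.15, 6.77 and 7.57 CPM in the control libraries. The lowest mutant library thus held several times the level of the highest control library, and the libraries of each group lay close together. The log2 fold change was 2.94 ± 0.062 (SE), a 7.70-fold higher level in the mutant. Among the 1274 genes called higher with a mean of at least 5 CPM this was rank 2, between Kcne3 at 4.29 and Egln3 at 2.75 on the log2 scale. With each library left out in turn the value stayed between 2.91 and 2.99.

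Furin, on chromosome 7 from 80388585 to 80405436 on the minus strand, differed by much less. Its level was 199, 197 and 200 CPM in mutant libraries and 175, 178 and 168 CPM in control libraries, so all mutant libraries lay above all control libraries. Groups also separated in genes that were not called, such as Flna. The share of all tested genes without overlap was not counted, so nothing is read from such separation here or below. The log2 fold change was 0.19 ± 0.033 (SE), or 1.14-fold. An annotated antisense gene, Gm44851, overlaps Furin and reached at most 0.0486 CPM in any library.

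Pcsk5, the closest relative of Pcsk6, differed in the opposite direction. It lies on chromosome 19 from 17432319 to 17837632 on the minus strand and is known for the activation of Gdf11 in the mouse embryo. It had 11.8, 14.1 and 11.9 CPM in mutant libraries and 18.6, 19.8 and 18.8 CPM in control libraries, again without overlap. The log2 fold change was -0.60 ± 0.089 (SE), a level 1.52 times higher in control libraries. Markers of mural cells and fibroblasts were measured beside it, where 7.56% of all tested genes were called higher and 6.83% lower. Of 11 pericyte and smooth muscle markers 3 were called higher and 5 lower, the contractile genes Acta2, Tagln, Myh11 and Cnn1 being among the lower ones (log2 fold change -1.32, -1.17, -1.02 and -1.84) with Vtn at -0.18 as the fifth. The higher ones were Abcc9, Kcnj8 and Cspg4 (0.52, 0.49 and 0.19), and the pericyte gene Pdgfrb, at -0.05, was not called. The list summed to 4046 to 4139.9 CPM in mutant and 3964 to 4068 CPM in control libraries. Fibroblast markers summed to 542 to 722 CPM in mutant and 827 to 937 CPM in control libraries, with 2 of 8 called lower. No marker of these lists was at 0 in all libraries, and their part in the level of Pcsk5 was not tested. In such bulk libraries fewer cells of a type and less RNA per cell cannot be told apart.

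Pcsk7 and Mbtps1 were expressed in both groups with small differences. Pcsk7, a membrane-bound convertase whose plus-strand gene spans 45906497 to 45929726 of chromosome 9, had 49.4, 55.8 and 60.3 CPM in mutant and 55.6, 42.8 and 55.7 CPM in control libraries, with overlapping groups. Its log2 fold change was 0.10 ± 0.13 (SE). Exons of Pcsk7 overlap the smooth muscle gene Tagln on the opposite strand, and the sources used here do not state if reads were assigned by strand. Tagln had 25.6 ± 1.24 CPM in mutant and 57.6 ± 4.98 CPM in control libraries (SD, n = 3 each). Mbtps1, on chromosome 8 from 119508156 to 119558735 on the minus strand, had 164, 163 and 169 CPM in mutant and 174, 181 and 177 CPM in control libraries. These groups did not overlap, and the log2 fold change of -0.11 ± 0.034 (SE) missed the threshold described next.

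Pcsk1 and Pcsk4 were near the limit of detection. Pcsk1, a convertase of neuroendocrine secretory granules on chromosome 13 from 75089826 to 75134861, had 0.268, 0.373 and 0 CPM in mutant and 0.190, 0.183 and 0.183 CPM in control libraries. The 0 of mutant library 3 allows up to 0.162 CPM, which corresponds to 3 read pairs and covers counting error only. Pcsk4, best known from male germ cells, lies on chromosome 10 from 80321283 to 80329498 and had 0.292, 0.965 and 0.540 CPM in mutant and 0.430, 0.452 and 0.391 CPM in control libraries. For both, the mutant libraries spanned the control range. Their log2 fold changes were 0.21 ± 1.03 and 0.50 ± 0.47 (SE), so no difference was detectable at this depth.

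**Figure D1:**
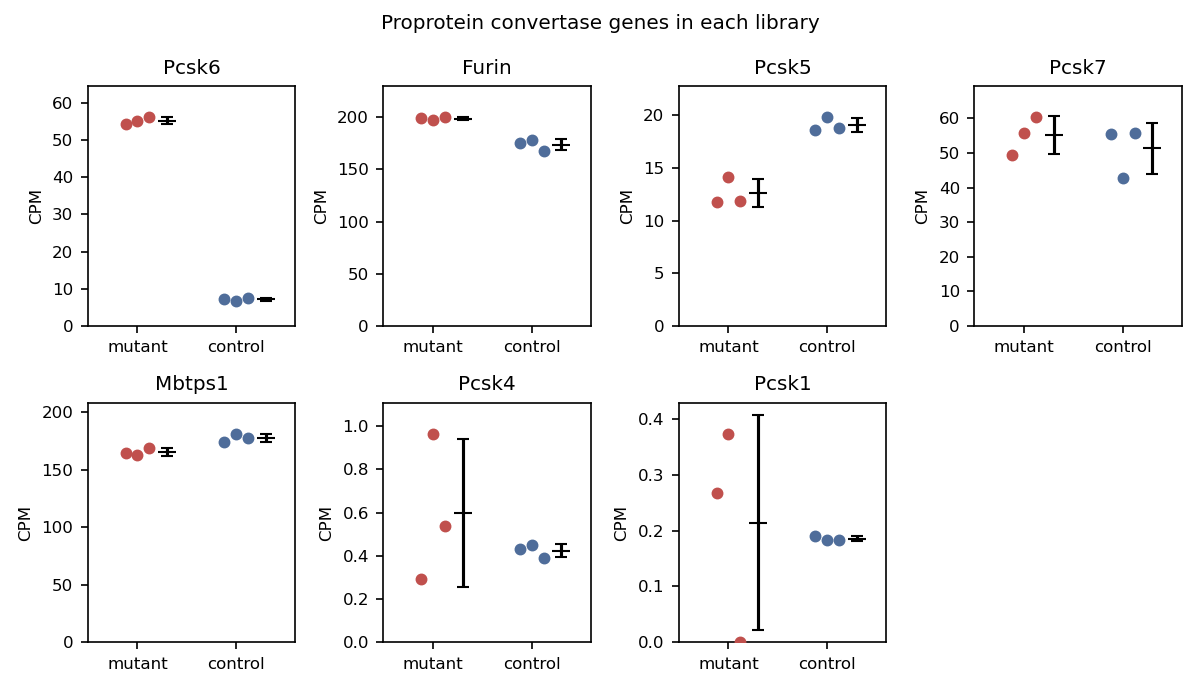
Expression of the 7 convertase genes in CPM (linear axes from 0) in each of the 3 mutant and 3 control libraries; dots are libraries, and the bar beside them is the mean with its SD. Pcsk6 sits at 54.3 to 56.1 CPM in mutant libraries against 6.77 to 7.57 CPM in control libraries, while Pcsk5 is lower in mutant libraries and Pcsk7, Pcsk4 and Pcsk1 overlap.

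A gene was called when its adjusted p in edgeR's quasi-likelihood test, with Benjamini-Hochberg adjustment over all 19549 genes tested, was under 0.05. All 7 members passed the filter on low counts, and 3 were called: Pcsk6 and Furin higher and Pcsk5 lower. Over all tested genes 14.4% were called, 7.56% higher and 6.83% lower. Since this contrast chose the group, nothing is read from the count. The median log2 fold change was 0.19 over the members and -0.01 over all tested genes. The number of all genes called lower was 1335, and it was 865 when mutant library 2 was left out, 807 when control library 1 was and 861 when control library 2 was. The same 3 members kept their calls with each of the 6 libraries left out. This is no independent support, since the contrast chose the group and the libraries of a group may be repeats of the same pool. Pcsk2, a neuroendocrine convertase outside the group, was not called and averaged 5.46 ± 0.992 CPM in mutant and 5.40 ± 0.912 CPM in control libraries (SD, n = 3 each).

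Per length, the make-up of the family differed between the groups mainly through Pcsk6. Levels were set per kilobase of merged exons (CPM per kb), a scale on which genes can be compared. In mutant libraries Furin had 21.6 ± 0.161, Mbtps1 15.7 ± 0.303, Pcsk6 10.6 ± 0.174, Pcsk7 10.6 ± 1.06 and Pcsk5 0.872 ± 0.0902 CPM per kb (SD, n = 3). In control libraries Furin had 18.9 ± 0.511, Mbtps1 16.9 ± 0.352, Pcsk7 9.87 ± 1.43, Pcsk6 1.38 ± 0.0766 and Pcsk5 1.32 ± 0.0440 CPM per kb (SD, n = 3). Pcsk6 and Pcsk7 thus did not differ beyond their spread in mutant libraries, and Pcsk6 and Pcsk5 did not in control libraries. Pcsk4 and Pcsk1 were lowest, at 0.203 ± 0.115 and 0.0381 ± 0.0343 CPM per kb in mutant and 0.143 ± 0.0106 and 0.0331 ± 0.000645 CPM per kb in control libraries (SD, n = 3 each).

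Pcsk6 made up 18%, 17.8% and 17.7% of the summed level of the 7 genes in mutant libraries and 2.81%, 2.74% and 2.99% in control libraries. The sum itself was 59.6 ± 1.57 CPM per kb in mutant and 48.5 ± 0.760 CPM per kb in control libraries (SD, n = 3 each). The ratio of Pcsk6 to Furin was 0.491 ± 0.00673 in mutant and 0.0731 ± 0.00604 in control libraries. The ratio of Pcsk6 to Pcsk5 was 12.3 ± 1.22 in mutant and 1.05 ± 0.0869 in control libraries (SD, n = 3 each). These values depend on the length used. With the longest coding transcript as length, the share of Pcsk6 was 11.1% in mutant and 1.65% in control libraries, Mbtps1 at 41.0 ± 0.856 was level with Furin at 40.1 ± 1.08 CPM per kb in control libraries, and Pcsk5 at 2.65 ± 0.0885 lay above Pcsk6 at 1.63 ± 0.0903 CPM per kb there.

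**Figure D2:**
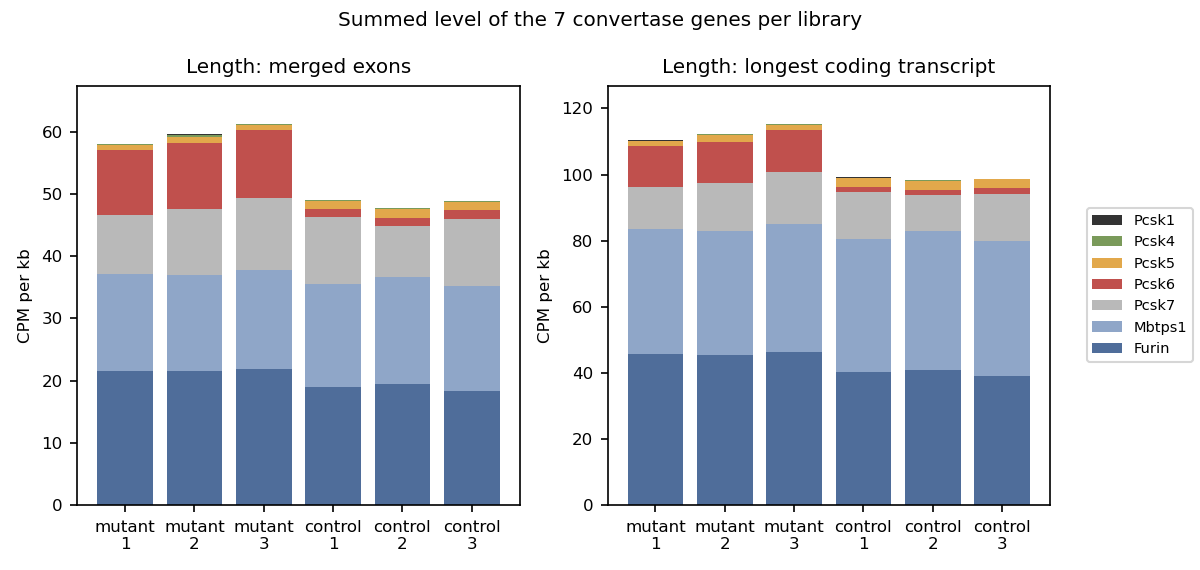
Summed level of the 7 convertase genes in CPM per kb in each mutant and control library, stacked by gene, with length taken as merged exons (left) or as the longest coding transcript (right). The Pcsk6 block is 17.7% to 18% of the bar in mutant libraries against 2.74% to 2.99% in control libraries on the left, and 11.1% against 1.65% on average on the right.

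The genes whose pattern over the 6 libraries was closest to that of Pcsk6 were ranked among 11737 tested genes by the distance between log2(CPM + 1) values centred on the control mean. The 5 nearest were Egln3 at a distance of 0.508, Adm at 0.661, Clca2 at 0.699, Cdh13 at 0.728 and Dlk1 at 0.899. Egln3, a prolyl hydroxylase of hypoxia-inducible factors, averaged 30.9 ± 1.43 CPM in mutant and 4.59 ± 0.790 CPM in control libraries (SD, n = 3 each). Because libraries of 2 groups define the pattern, any gene with a similar fold change comes close on this measure.

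The genes next to Pcsk6 and Furin were described by the same fit. It called 14.4% of all tested genes and 20.8% of those with a mean of at least 5 CPM. Any link between the neighbours' differences and those of the members was not tested. Of the 3 nearest tested genes on each side, Tm2d3 and Snrpa1 were called higher, both with a log2 fold change of 0.32 (SE 0.063 and 0.045, adjusted p = 0.0139 and 0.00283 by edgeR's quasi-likelihood test). Their starts lie 171 kb before and 197 kb after that of Pcsk6. Tarsl2, Selenos and Chsy1 had log2 fold changes of -0.08, 0.12 and -0.10 and were not called, and neither was 1810008I18Rik, whose 1.87 ± 1.36 (SE) rests on at most 0.337 CPM in any library. Among the 6 neighbours of Furin, Fes, whose lowest coordinate lies 10.8 kb below that of Furin, had a log2 fold change of 0.12 ± 0.064 (SE), and Blm one of 0.30 ± 0.082 that missed the threshold (adjusted p = 0.0537 by the edgeR test). Only Gm18310 of these 6 was called, at 0.128 ± 0.0582 CPM in mutant and 0.994 ± 0.334 CPM in control libraries (SD, n = 3 each), in an exon overlap with the antisense gene Hddc3.

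Sequence upstream of the start sites was searched for GTGGGAA on both strands, the core letters bound by Rbpj, because Rbpj is the gene deleted in the mutant. RefSeq windows (GRCm38.p6) of 250 bases were at hand for 7 start sites of 6 members. The Pcsk6 window begins at 65861886 and so lies inside the GENCODE span of the gene, which begins at 65861734. Sequence before 65861734 was not searched. Pcsk5 held 1 match, starting 69 bases before its start site, and the other 6 windows held none; of all 32851 windows 5.42% held a match. The Pcsk5 window (chr19:17837633-17837882, minus strand, match in capitals) and the part of the Pcsk6 window outside annotated exons (chr7:65861886-65862028, plus strand, without a match) read as follows.
Pcsk5: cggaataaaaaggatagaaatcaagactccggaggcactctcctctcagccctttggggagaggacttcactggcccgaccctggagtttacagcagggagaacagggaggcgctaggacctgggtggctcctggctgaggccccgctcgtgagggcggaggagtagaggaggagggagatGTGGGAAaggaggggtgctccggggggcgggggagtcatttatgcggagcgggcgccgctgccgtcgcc
Pcsk6: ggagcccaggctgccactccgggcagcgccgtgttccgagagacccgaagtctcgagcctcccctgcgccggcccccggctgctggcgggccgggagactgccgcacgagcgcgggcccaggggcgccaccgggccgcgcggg
A match is a run of letters and shows no binding. The 250-base window of Pcsk6 had a GC content of 81.2% and that of Pcsk5 64.0%, against a median of 52.4% over all windows.

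Genes that act on the convertases themselves were read beside the 14.4% called over all tested genes. Of 5 inhibitors and chaperones, Gbp5, known in human cells as an inhibitor of furin, fell to 15.0 ± 0.566 CPM in mutant libraries, against 21.5 ± 0.487 CPM in control libraries (SD, n = 3 each; log2 fold change -0.53, adjusted p = 0.00143). Gbp2, Pcsk1n, Scg5 and Serpinb8 were not called, and the list had a median log2 fold change of -0.26. Among 8 genes of furin sorting, Pacs1 alone was called (0.14 ± 0.037 SE, adjusted p = 0.0468), and it lost the call with any of the 6 libraries left out (adjusted p from 0.0718 to 0.117). The filamin gene Flna had 739 ± 7.29 CPM in mutant and 718 ± 7.20 CPM in control libraries (SD, n = 3 each). All adjusted p here and in the following lists are from edgeR's quasi-likelihood test over all tested genes.

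Of 16 matrix and cell-surface genes known or likely to hold these convertases, 3 rose and 7 fell, with a median of -0.21. Of all tested genes 14.4% were called, and 20.8% of those with a mean of at least 5 CPM. The list was chosen with earlier results of these data known, and nothing is read from its count. Ext1, a heparan sulfate polymerase, rose to 114 ± 3.08 CPM in mutant libraries, against 60.1 ± 0.932 CPM in control libraries (0.92, adjusted p = 1.10e-05). Ext2, of the same family, went the other way (-0.27, adjusted p = 0.00902). It had 137 ± 7.88 CPM in mutant and 165 ± 4.17 CPM in control libraries (SD, n = 3 each). The perlecan gene Hspg2 rose to 1696 ± 79.0 CPM, against 1101 ± 50.6 CPM in control libraries (0.62, adjusted p = 0.000155), and Sdc3 by 0.23. The syndecan genes Sdc1 and Sdc2 fell by 1.11 and 0.54, the glypican gene Gpc4 by 0.65 and the metalloproteinase inhibitor gene Timp2 by 0.50 on the log2 scale (adjusted p from 8.34e-05 to 0.00446). Members of the same families thus changed in both directions. Among 5 enzymes that trim peptides after convertase cleavage, the carboxypeptidase gene Cpe rose by 0.52 (adjusted p = 5.91e-05) and the amidating enzyme gene Pam fell by 0.26 (adjusted p = 0.00827), while Cpd, Cpm and Cpz were not called. That list had a median of -0.13.

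Genes of convertase substrates were followed in 4 lists with 76 genes, of which 71 were tested. A total of 21 rose and 11 fell, 45.1% of those tested, against 14.4% of all tested genes. Expression bears on this share: with a mean of at least 5 CPM, 54.4% of 57 substrate genes and 20.8% of all 11738 genes were called. The lists were also chosen with earlier results of these data known, which bears on the share as well. The difference between these shares was not tested, and nothing is read from it. The median log2 fold change of the substrate genes was -0.05.

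In the TGF-beta family, 3 of 12 tested genes rose and 3 fell, with a median of 0.03. Nodal, whose precursor Furin and Pcsk6 are known to cleave, had 12.5, 12.2 and 12.1 CPM in mutant and 4.31, 3.88 and 3.49 CPM in control libraries. The mutant libraries all lay well above the control libraries (1.65 ± 0.11 SE, adjusted p = 7.12e-05). Inhbb rose by 0.63 and Tgfb1 by 0.44, the latent growth factor whose propeptide furin removes, with 248 ± 18.1 CPM in mutant and 183 ± 2.56 CPM in control libraries (SD, n = 3 each; adjusted p = 0.00155). Tgfb3 fell by 0.66, Tgfb2 by 0.39 and Bmp2 by 0.35. Bmp2 lost the call in 5 of 6 fits with a library left out, all but that without control library 3 (adjusted p from 0.0843 to 0.118). Bmp4 and Gdf11 had log2 fold changes of -0.05 ± 0.089 and 0.11 ± 0.12 (SE) and were not called. Bmp10, Mstn and Lefty2 had no counts in any library.

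Other growth factor and peptide precursors changed in both directions. Adm, the precursor of adrenomedullin, had 179, 173 and 180.3 CPM in mutant and 31.9, 32.5 and 33.7 CPM in control libraries (2.44 ± 0.040 SE, adjusted p = 5.28e-07). Apln, the apelin precursor, had 1727, 1774 and 1883 CPM in mutant and 570.5, 593 and 611 CPM in control libraries (1.6 ± 0.044 SE, adjusted p = 2.14e-06). For both genes every mutant library lay above every control library. Pdgfb, through which endothelium recruits pericytes, rose by 0.39 (adjusted p = 0.000707). In contrast, Vegfc, a growth factor of lymphatic vessels, fell to 21.6 ± 0.519 CPM in mutant libraries, against 49.8 ± 1.95 CPM in control libraries (SD, n = 3 each; -1.20, adjusted p = 1.51e-05). Pomc fell by 0.74 and Pdgfa by 0.56 (adjusted p = 0.0195 and 0.00273). Pomc lost the call without mutant library 1 or 2 or control library 1 or 3 (adjusted p from 0.0512 to 0.0684). Of the 15 genes tested, 3 rose and 3 fell, and the median was -0.38. Edn1, the endothelin precursor, had 71.6 ± 1.5 CPM in mutant and 70.6 ± 1.32 CPM in control libraries (SD, n = 3 each).

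Receptor, adhesion and guidance genes rose in 7 of 22 cases and fell in 3, with a median of -0.03. The semaphorin gene Sema3f rose to 59.4 ± 2.48 CPM in mutant libraries, against 23.9 ± 1.32 CPM in control libraries (1.31, adjusted p = 1.79e-05), and Sema3a rose by 0.90 at 4.62 ± 0.556 CPM in mutant and 2.47 ± 0.422 CPM in control libraries (SD, n = 3 each). The integrin genes Itga4 and Itga6 rose by 0.68 and 0.45. Among the Notch receptor genes Notch4 rose by 0.33 (adjusted p = 0.00220). The lower genes of the list were Notch1 (-0.25), Notch3 (-0.19) and the VE-cadherin gene Cdh5 (-0.15), with adjusted p from 0.0126 to 0.0380. These calls were lost when single libraries were left out. Notch1 lost the call without mutant library 2 or control library 1 (0.0547 and 0.0544), Notch3 without mutant library 1 or 2 or control library 1 or 2 (0.0670 to 0.0919), and Cdh5 in all such fits but that without mutant library 3 (0.0973 to 0.161, all adjusted p). Itga6 lost it without control library 1 or 3 (adjusted p = 0.0739 and 0.0775).

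Genes of proteases, lipases and other secreted proteins such as Vwf rose in 8 of 22 cases and fell in 2, with a median of 0.12. The metalloprotease gene Adam19 rose to 62.3 ± 2.00 CPM in mutant libraries, against 24.9 ± 0.840 CPM in control libraries (1.32, adjusted p = 8.06e-06). Adam12 rose by 0.73, the aggrecanase-family gene Adamts1 by 0.63 and the membrane-type metalloproteinase gene Mmp25 by 0.68 (adjusted p = 0.000387, 6.45e-05 and 0.0482). Adam15 and Mmp17 fell by 0.32 and 0.34. Mmp25 kept its call without mutant library 1 and lost it without any of the other 5 (adjusted p from 0.0610 to 0.151), and Mmp17 in all but that without control library 3 (adjusted p from 0.0509 to 0.125). Corin, the protease of the natriuretic peptide precursors that Pcsk6 is known to activate, had 0.468 ± 0.331 CPM in mutant and 0.756 ± 0.111 CPM in control libraries (SD, n = 3 each).

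**Figure D3:**
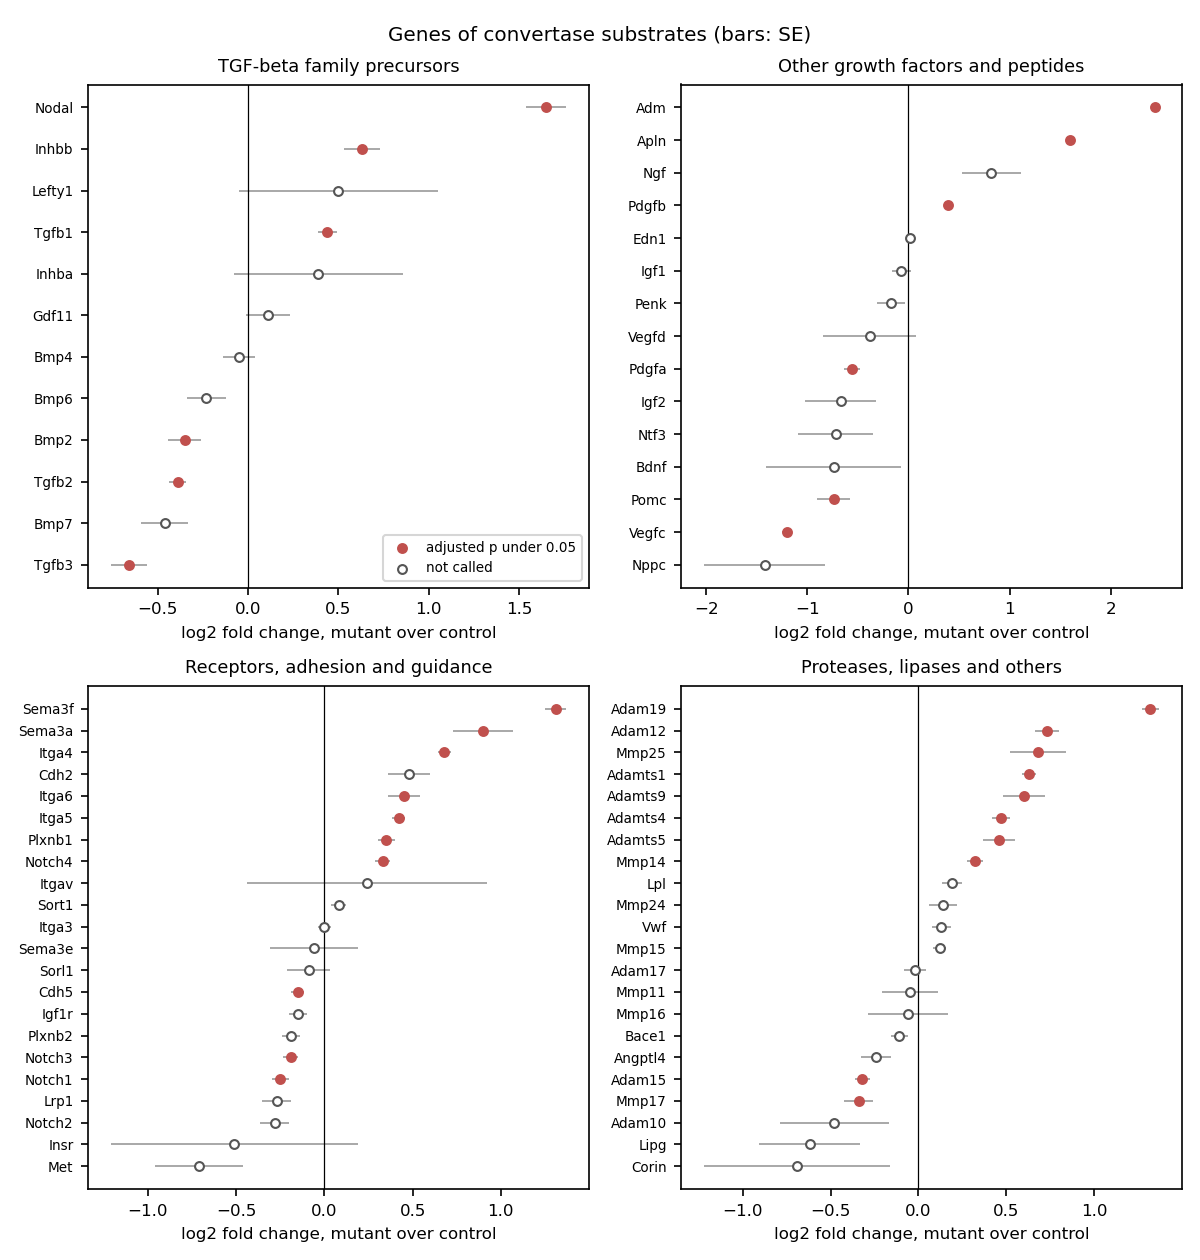
Log2 fold change, mutant over control, of the 71 tested genes of convertase substrates in 4 lists; points are genes, bars are SE of the fitted value and filled points passed an adjusted p of 0.05. Nodal at 1.65, Adm at 2.44, Sema3f at 1.31 and Adam19 at 1.32 lead their lists.

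Genes of the Mbtps1 pathway were called in 3 of 12, 3 of 19 and 2 of 17 cases in the 3 lists that follow, beside 14.4% over all tested genes. The protease cuts the membrane-bound SREBP and ATF6 transcription factors, which then switch on sterol synthesis and chaperone genes. Of 12 partners and substrates, Creb3l1 and Creb3l2 rose by 0.53 and 0.44 (adjusted p = 0.00188 and 0.000313) and the SREBP retention gene Insig1 fell by 0.19 (adjusted p = 0.0435), with a median of 0.08. The call of Insig1 was lost with any of the 6 libraries left out (adjusted p from 0.104 to 0.126). Mbtps2, the protease that makes the next cut, had 33.8 ± 1.28 CPM in mutant and 35.7 ± 2.54 CPM in control libraries (SD, n = 3 each).

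Of 19 SREBP target genes, 1 rose and 2 fell, with a median of -0.04. The sterol synthesis genes Sqle and Dhcr7 each fell by 0.19 on the log2 scale and the desaturase gene Scd2 rose by 0.28, with adjusted p from 0.0263 to 0.0307. Sqle and Dhcr7 lost their calls with any of the 6 libraries left out (adjusted p from 0.0569 to 0.107). Scd2 lost its call without control library 1 or any of the 3 mutant libraries (adjusted p from 0.0612 to 0.1). Among 17 genes of the ATF6 response, Edem1 and Pdia6 rose by 0.32 and 0.27 (adjusted p = 0.00245 and 0.00494), and none fell, with a median of 0.08. Hspa5, the main chaperone of the endoplasmic reticulum, had 648 ± 11.0 CPM in mutant and 646 ± 16.7 CPM in control libraries (SD, n = 3 each).

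**Figure D4:**
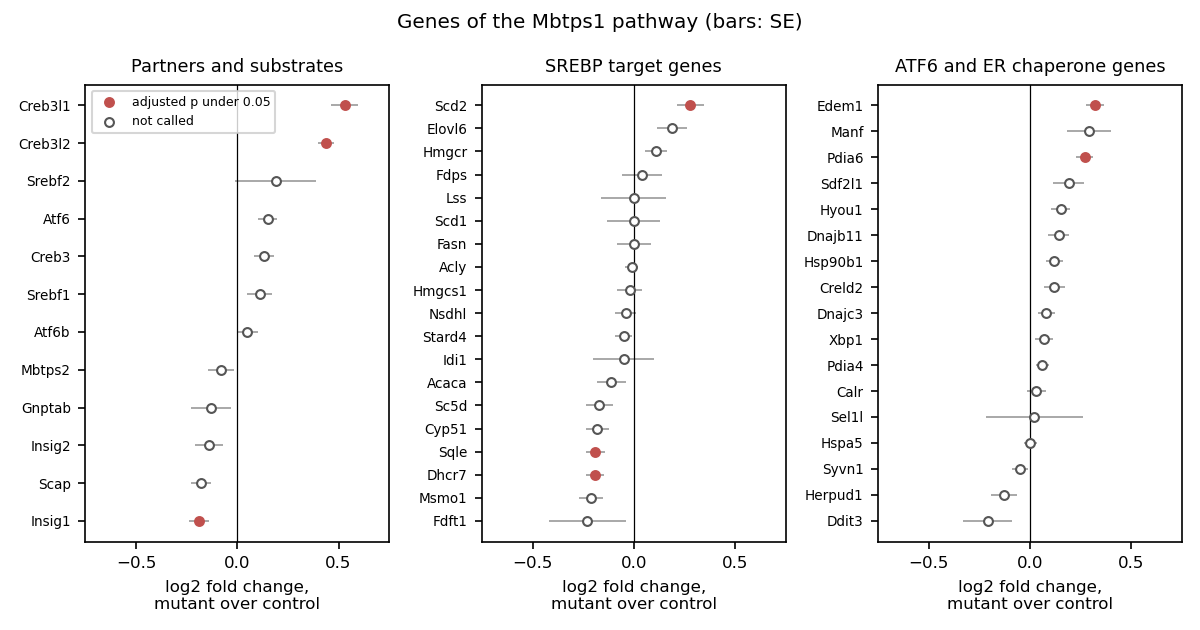
Log2 fold change, mutant over control, of partners and substrates of Mbtps1, of SREBP target genes and of ATF6 and endoplasmic reticulum chaperone genes; points are genes, bars are SE and filled points passed an adjusted p of 0.05. Most points are open and lie close to 0, with Creb3l1 at 0.53 highest and Insig1, Sqle and Dhcr7 at -0.19 lowest among the filled points.

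Markers of other cells were measured beside these results. Over all tested genes 7.56% were called higher and 6.83% lower, and 20.8% of those with a mean of at least 5 CPM were called in either direction. Neuron markers, relevant to Pcsk1 and Pcsk2, summed to 191 to 224 CPM in mutant and 195 to 212 CPM in control libraries, with 2 of 13 called lower. Microglia markers summed to 836 to 875 CPM in mutant and 1079 to 1082 CPM in control libraries, with 5 of 9 called lower. Astrocyte markers summed to 259 to 387 CPM in mutant and 479.9 to 533 CPM in control libraries, with 2 of 8 called lower. Erythroid markers summed to 4665 to 4961 CPM in mutant and 6974 to 7179 CPM in control libraries, with 5 of 7 called lower. Choroid plexus markers summed to 3425 to 4454 CPM in mutant and 5062 to 5508 CPM in control libraries, with 2 of 5 called lower. Oligodendrocyte markers summed to 78.7 to 97.8 CPM in mutant and 73.8 to 79.5 CPM in control libraries, with 2 of 8 called higher and 1 lower, and platelet markers to 12 to 14.3 CPM in mutant and 11.2 to 17.3 CPM in control libraries, with none of 5 called. No marker of these lists was at 0 in all libraries, and the part of such cells in the level of any convertase gene was not tested.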

How the data were processed

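The authors deposited estimated counts per gene in whole numbers; normalization had not been applied. HISAT2, StringTie 1.3.4, cutadapt 1.10, FastQC 0.10.1 and edgeR are the tools and GRCm39 the build named in the submitters' processing notes; the role of each is not stated. A deposited quality table gives reads before and after trimming as a count, and reads kept, base quality and GC in percent. All 55450 gene identifiers match GENCODE release M21 (GRCm38), which gave symbols, coordinates and lengths. Low counts pile up at 4 (1118 to 1190 genes per library, against 316 to 365 at 3 and 171 to 189 at 5), so about 4 units stand for 1 read pair. Rounding altered no value, and the edgeR test planned for counts was used on these estimates.

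Genes were kept with filterByExpr (19549), scaled by TMM and compared with edgeR 4.0.16 (quasi-likelihood F test, robust, group as the only term) in R 4.3.3. The SE is the size of the log2 fold change over the square root of F. The steps were tested on simulated data, with 200 genes changed in each of 5 tables. That is a smaller share than the 14.4% called in the data, so the rates may not hold for the data. In the simulated tables the steps called 25.0% of genes changed 1.5-fold, 61.1% of those changed 2-fold and 0.0764% of unchanged genes. A gene that was not called may therefore still differ. Alternatives used DESeq2 1.42.0, limma 3.58.1, other scalings and filters, counts divided by 4, a replicate block and leaving out each library. Any pair of libraries within a group differed beyond sampling noise (chi-square 12.8 to 17.4 times its expectation on counts divided by 4). The source of this excess was not tested, and it does not show that the libraries came from different mice. Each library was entered in the fit as 1 sample.

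Members and lists were chosen with earlier results of these data known. All members are named, and from each pathway list up to 4 called genes per direction with the largest changes. Notch4 and Ext2 were called too and are named beside relatives, outside the 44 named list genes followed below. Genes named without a call, such as Bmp4, Gdf11, Edn1, Corin, Mbtps2 and Hspa5, are examples chosen for their role. A few genes of these lists are not reported here and were left out of the counts of their lists.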

Additional observations from a re-analysis of the deposited data

How the results depend on the processing

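Across 14 alternatives Pcsk6, Furin and Pcsk5 kept their direction and their calls. With a library left out, the log2 fold change was 2.91 to 2.99 for Pcsk6, 0.17 to 0.22 for Furin and -0.68 to -0.55 for Pcsk5. All these fits use libraries of the contrast that chose the group, so they describe only how the values depend on the processing. The count of members called lower was 2 instead of 1 with library size only and with the stricter filter of 5 CPM, where Mbtps1 was called too. Pcsk1 reversed to -0.33 with the replicate block and to -1.04 with limma-voom; with a library left out it ran from -0.44 to 0.79, Pcsk4 from -0.02 to 0.83 and Pcsk7 from -0.01 to 0.18. The cause was not tested. Pcsk1 had at most 29 and Pcsk4 at most 75 estimated counts in any library. Pcsk1 and Pcsk4 had no value with the stricter filter or with counts divided by 4. The share of Pcsk6 in the family sum was 11.1% in mutant and 1.65% in control libraries with the longest coding transcript as length, an alternative chosen after seeing the data. With a library left out, genes called higher numbered 1100 to 1270 and genes called lower 807 to 1125.

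No pairing of libraries by replicate number was visible. Deviations of same-numbered libraries correlated at -0.0233, 0.00969 and 0.0233, and not every library correlated best with its own number. With so few libraries this cannot show that same-numbered libraries were handled apart. With the replicate block 1106 genes were called higher and 953 lower, no member lost its call, and 10 of 44 named list genes did. Of these 44 genes, 31 kept their call under every alternative that gave a value, and none changed sign.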

Other observations

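Some substrate genes varied widely within a group. The insulin receptor gene Insr had 80.7, 78.4 and 226 CPM in mutant libraries and 235, 240.1 and 72.3 CPM in control libraries, a split that did not follow the groups. The sheddase gene Adam10 had 297, 291 and 566 CPM in mutant libraries and 537, 545 and 532 CPM in control libraries, so that its low libraries were both mutant. Igf2 had 699, 424 and 373 CPM in mutant libraries and 681, 1064 and 629 CPM in control libraries. These genes were chosen after their values were seen, none of them was called, and the source of this spread was not tested.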
